A study of Mus musculus with 2 samples.

Results

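The cytosolic ribosomal protein genes and their paralogs were described in the polyadenylated RNA of adult mouse urinary bladder. Genes were taken by symbol, as every name made of Rpl or Rps and a number, with the stalk genes Rplp0, Rplp1 and Rplp2 and with Rpsa, while names ending in -ps and Gm pseudogenes were left out. The rule found 89 of the 43346 genes quantified in both libraries. These were 43 large subunit genes, 31 small subunit genes, 3 stalk genes, 7 protein-coding paralogs and 5 genes that the annotation lists as processed pseudogenes, Rps4l as a transcribed one. The first 77, of the subunits and the stalk, are called core members below.

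The series holds 1 group with 2 libraries, biological replicates 1 and 2, of bladder from C57BL/6J mice aged 8 weeks, untreated and wild-type as far as the labels say. The labels speak of littermates of mixed sex and name the same donor entry for both libraries, so the SD given here covers how these 2 samples differ and may be technical in part. The libraries were stranded and paired-end, from RNA over 200 nucleotides that was depleted of ribosomal RNA. Replicate 1 had 99367453 expected counts on genes and replicate 2 had 105057347. There is no second condition, so the question the data can answer is how much of each member's RNA was present and how far the libraries differed.

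A eukaryotic ribosome carries each ribosomal protein once, apart from the acidic stalk proteins, which are present as dimers, and excess ribosomal proteins are degraded. Most mammalian ribosomal protein mRNAs begin with a C followed by a run of pyrimidines, the terminal oligopyrimidine (TOP) motif, through which mTOR and LARP1 control their translation. Each mammalian ribosomal protein is usually made from a single gene with introns, while the genome holds many intronless copies of the mRNA. A few expressed paralogs are known for restricted tissues, among them Rpl3l in striated muscle and Rpl10l and Rpl39l in the male germ line.

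The start of the gene is shown first, since the TOP motif is the sequence these genes are known for. RefSeq promoters (GRCm38.p6, 250 bases before to 50 after the annotated start) were matched for 64 of the 89 members. The motif searched was a run of at least 8 bases that were C or T on the gene's strand, overlapping the span from 10 bases before to 15 bases after the annotated start. It was present in 30 of the 64 members, or 46.9%, against 17.6% of all 27025 genes in the promoter table. The same run on the other strand, read as A or G, was present in 5 of the 64 members and in 19.9% of all genes. Each window below runs from 15 bases before the start, so that position 16 is the annotated first base, and capitals mark the run. The first 5 are core members with long runs, the next 2 are paralogs with a run, and the last 4 are members without one.
Rpl7a: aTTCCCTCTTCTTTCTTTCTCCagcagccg
Rpl35: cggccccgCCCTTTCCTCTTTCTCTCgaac
Rpl15: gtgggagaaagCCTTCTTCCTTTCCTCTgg
Rpl35a: gcggggcttgCCTTCCTCTTTCCgccatct
Rps18: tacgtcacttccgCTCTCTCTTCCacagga
Rpl22l1: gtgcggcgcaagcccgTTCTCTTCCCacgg
Rps27l: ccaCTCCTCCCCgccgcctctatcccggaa
Rpl5: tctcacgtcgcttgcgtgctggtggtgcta
Rplp0: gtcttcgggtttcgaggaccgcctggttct
Rpl36al: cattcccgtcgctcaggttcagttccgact
Rpl39l: ctcccaggcctttccggatttccggtggtc
The run of Rpl7a, at chr2:26910792-26910821 on the plus strand, was 21 bases long. That of Rpl35 (chr2:39005117-39005146, minus strand) had 18 bases and that of Rpl15 (chr14:18270972-18271001, minus strand) 17. Rpl35a (chr16:33056467-33056496, plus strand) had 13 and Rps18 (chr17:33955651-33955680, minus strand) 11. Rpl22l1 (chr3:28805493-28805522, plus strand) had 10 and Rps27l (chr9:66946071-66946100, plus strand) 9. The windows without a run lie at chr5:107900513-107900542 for Rpl5 and chr5:115559452-115559481 for Rplp0, both on the plus strand. Those of Rpl36al and Rpl39l lie at chr12:69184053-69184082 on the minus strand and chr16:10170213-10170242 on the plus strand. A run that ends before position 16, as in Rps27l, lies upstream of the annotated first base, and such runs are counted too. Other annotated starts of Rpl35a and Rps27l held no run. A missing run says only that these letters are not in the window at this annotated start. Of the core members with a promoter in the table, 28 of 57 held the run. The TATA box sequence TATAAA, searched from 40 to 11 bases before the start, was present in 1 of the 64 members and in 2.51% of all genes. Its reverse complement, TTTATA, was present in 1 of 64 and in 0.877%. Among the members whose promoters were not matched were Rpl17, Rpl21, Rpl23a, Rpl29, Rpl3, Rpl30, Rpl32, Rpl36, Rpl6l, Rpl7, Rpl8, Rplp1, Rps12l1, Rps14, Rps20, Rps27a, Rps29, Rps3a2, Rps3a3, and Rps4l.

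The 89 members together held 10.8% of all gene TPM (a level adjusted for transcript length and library size) in replicate 1 and 11.7% in replicate 2. The mean was 11.2% ± 0.645 (SD, n = 2). Of the expected counts, which are not adjusted for length, the same genes held 3.82% and 4.09%. The core members are short transcripts, with a median effective length (the number of start positions a fragment can have) of 517.8 bases in replicate 1 and 518.4 in replicate 2. The median over all genes that averaged 1 TPM or more was 2184 and 2158 bases. Of the 100 genes with the highest mean TPM, 39 were members, and of the top 200, 70 were. At 1 TPM or more in both libraries were 85 of the 89 members, including all 77 core members. In bulk tissue, fewer cells of a type and less RNA per cell cannot be told apart.

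**Figure D1:**
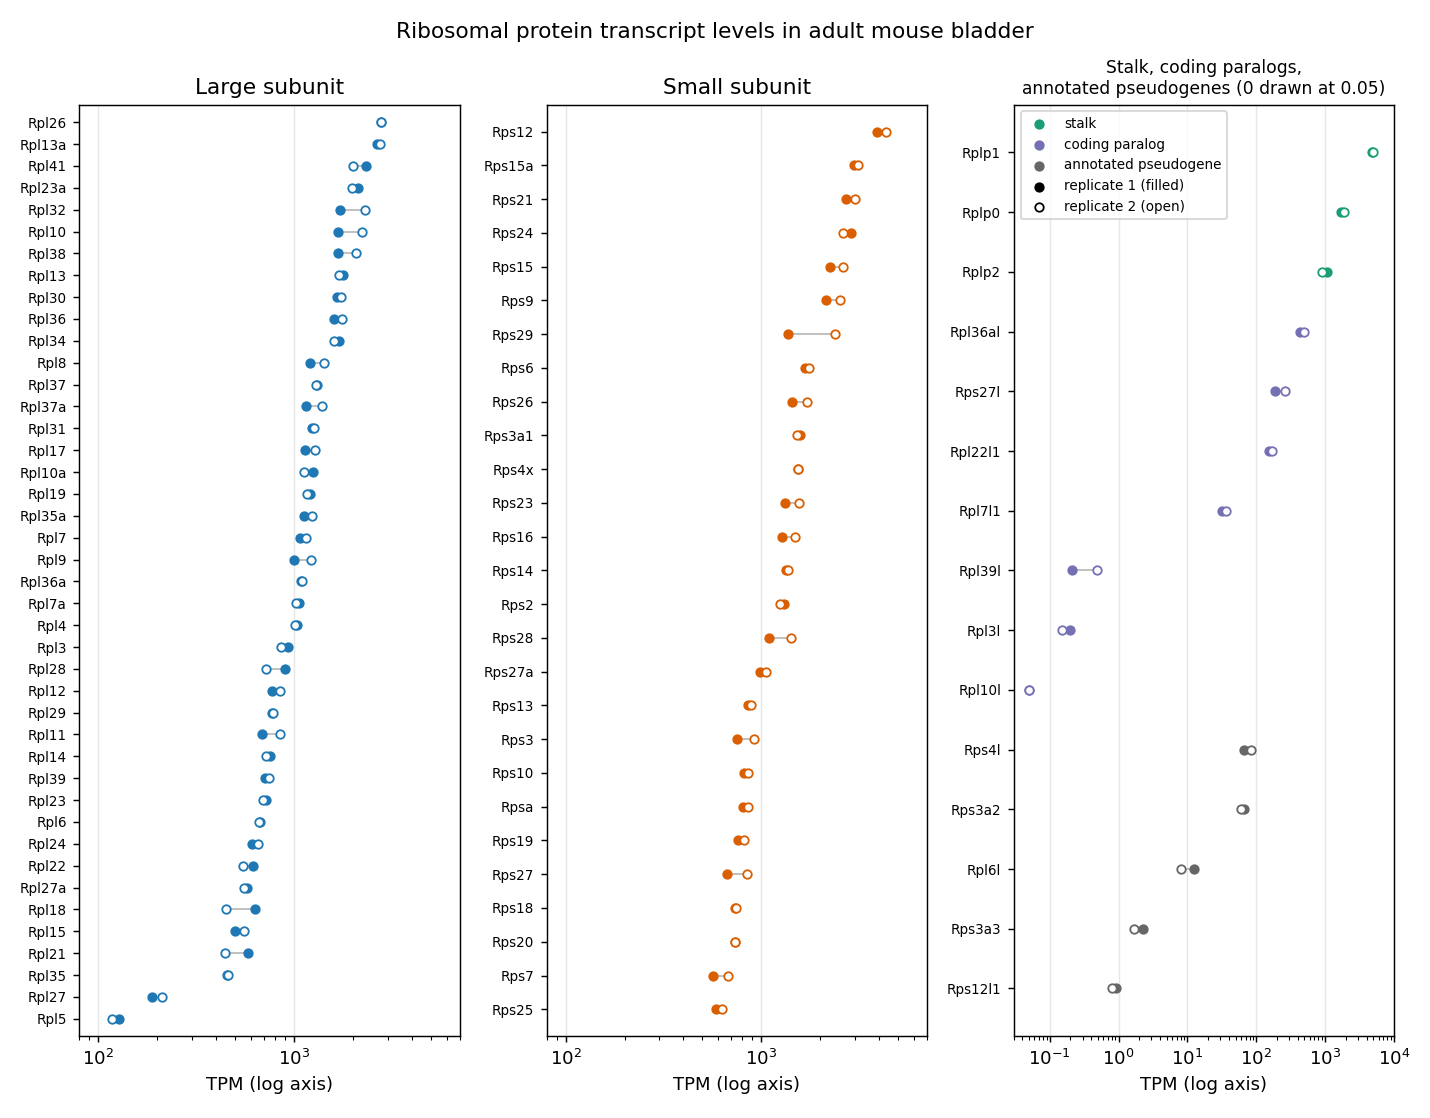
Level of 84 of the 89 members in TPM (log axis) in replicate 1 (filled points) and replicate 2 (open points), by subunit and class; a value of 0 is drawn at 0.05. Rplp1 is highest at 4795 and 4965 TPM, Rpl27 and Rpl5 lie apart below, and the paralogs and annotated pseudogenes spread down to Rpl10l at 0.

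The core members of the small subunit had a median level of 1306 TPM in replicate 1 and 1413 TPM in replicate 2. Those of the large subunit, with the 3 stalk genes counted in (46 genes), had medians of 1063 and 1110 TPM. The log2 ratio of the large to the small subunit median was -0.32 ± 0.037 (SD, n = 2). On CPM, the expected counts scaled to library size with no length adjustment, it was -0.09. Across the 77 core members the SD of log2 TPM was 0.86 in replicate 1 and 0.91 in replicate 2. Of these genes, 58 lay within 2-fold of their library's median in both libraries. The order of the core members was alike in both libraries (Spearman's rho 0.973 across 77 genes, a description, since the libraries share their annotation and tissue).

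Rplp1, an acidic protein of the stalk that recruits elongation factors, had the highest level of all members, with 4795 and 4965 TPM in replicates 1 and 2, the order kept for all pairs of values below. Its partner Rplp2 stood at 1058 and 885.8 TPM, and Rplp0, the scaffold on which both assemble, at 1721 and 1874 TPM. By expected counts Rplp0 came first, with 152040 and 181410 counts, the most of any member, against 109370 and 119490 for Rplp1. Its effective length was 1147 bases in replicate 1, against 296 bases for Rplp1.

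In the small subunit Rps12 was highest at 3899 and 4347 TPM. It was followed by Rps15a (2974 and 3112 TPM), Rps21 (2692 and 2995 TPM) and Rps24 (2863 and 2620 TPM), whose order changed between the libraries. Rps15 had 2249 and 2597 TPM, and Rps9 had 2134 and 2507 TPM. In the large subunit Rpl26 (2770 and 2784 TPM) and Rpl13a (2663 and 2745 TPM) led, and their 2 libraries hardly differed. Rpl41, which encodes the smallest of all ribosomal proteins, had 2330 and 1999 TPM. These 9 genes and Rplp1 were the 10 members of highest mean.

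At the low end of the core stood Rpl5, with 128 and 117 TPM. Rpl5 binds the 5S ribosomal RNA together with Rpl11 and, outside the ribosome, the p53 regulator Mdm2. Rpl11 itself had 685.7 and 848.2 TPM. Rpl27 had 187 and 212 TPM, and the core member next to it by mean, Rpl35, had 454 and 458 TPM. Rpl21 (583 and 445 TPM), Rpl15 (498 and 553 TPM), Rpl18 (634 and 447 TPM), Rpl27a (575 and 554 TPM), Rpl22 (613 and 546 TPM), Rps25 (587 and 627 TPM) and Rps7 (568 and 674 TPM) completed the lowest 10. From Rpl21 to Rps7, each gene overlapped its neighbour in this order, so neighbours did not differ beyond the spread between the libraries. Rpl5 and Rpl27 stood below all other core members in both libraries.

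The genome holds many annotated copies of these genes, and some took a large part of the signal. A copy is here a pseudogene, or a gene named with -ps, whose transcript matched a core member's coding sequence at 90% identity or more over at least 50% of its length. There were 1016 such copies outside the members, of which 702 were quantified and 107 had at least 1 TPM in both libraries. Of the 77 core members 75 had a copy, with a median of 10 per gene and the most for Rpl7a (83) and Rpl21 (78). Rpl8 was among those with none. Summed over all quantified copies, the level was 1.24% of gene TPM in replicate 1 and 1.22% in replicate 2. In 19 core members the copies held at least 10% of the summed TPM of gene and copies in both libraries, and in 22 they held under 1% in both.

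Gm15500, an intronless copy of Rpl5 (chr7:114705217-114706235 on mm10), had 1277 and 1223 TPM. It carried 80615 and 83942 expected counts and held 90.9% and 91.3% of the summed TPM of Rpl5 and its copies. Its sequence was identical to the Rpl5 coding sequence over all 891 bases, of which the first 60 are shown here.
Rpl5 and Gm15500: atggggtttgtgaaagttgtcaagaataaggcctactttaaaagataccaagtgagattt
Rpl27-ps3 likewise matched the whole Rpl27 coding sequence at 100% identity and had 893 and 1042 TPM. The copies of Rpl27 held 82.7% and 83.1% of the summed level. Rpl5 and Rpl27 were the only core members with more than 50% on copies in both libraries. They are also the core members of lowest level, and a low level of the gene itself raises this share by its definition. With copies added to every gene, the median of the core was 1208 TPM in replicate 1 and 1335 TPM in replicate 2. Rpl5 then summed to 1405 and 1340 TPM, in replicate 2 hardly above that median, and Rpl27 to 1082 and 1256 TPM, below it in both libraries.

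For Rps28, a small subunit protein, the copies held 60.4% in replicate 1 and 47.7% in replicate 2. Nearly all of that lay on Gm10443 (1645 and 1273 TPM), although it carried only 2174 and 1100 expected counts against 15619 and 20756 for Rps28 itself. For Rpl27a the copies held 45.1% and 54.1%, mainly Gm7536 at 471 and 651 TPM. Rpl31-ps8 (chr15:90764279-90764656) had 820.5 and 817.7 TPM beside 1227 and 1260 TPM for Rpl31. Rps6-ps4 (chr2:75191073-75191822) had 624.7 and 548.7 TPM beside 1668 and 1751 TPM for Rps6, the small subunit protein that S6 kinases phosphorylate. Both copies are identical to their gene over the coding sequence. The deposited bounds of the TPM of Gm15500 were 1257 to 1276 in replicate 1, just below the TPM itself, and 1205 to 1222 in replicate 2. Those of Gm10443 were wider, 1555 to 1716 and 1173 to 1352. From which of 2 identical stretches a read came was not tested.

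**Figure D2:**
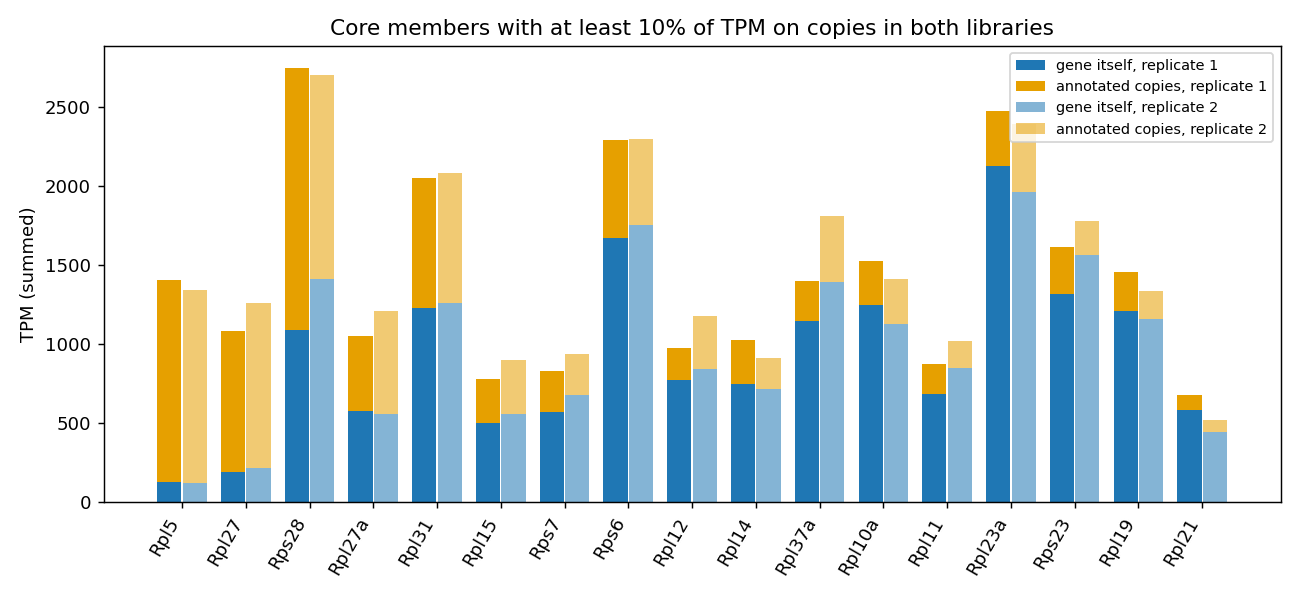
Summed TPM of 17 of the 19 core members with at least 10% of the signal on annotated copies in both libraries, with the gene itself in blue and its copies stacked in orange (replicate 1 dark, replicate 2 light). The copies exceed the gene itself for Rpl5 and Rpl27 in both libraries, for Rps28 in replicate 1 and for Rpl27a in replicate 2.

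With copies added to each gene, the SD of log2 TPM over the core was 0.73 in place of 0.88 (means of the libraries). The highest core gene was then 10.5 times the lowest in replicate 1 and 10.9 times in replicate 2, in place of 37.4 and 42.5 times. This grouping was chosen after the values were seen.

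A second set of deposited values, on the older mm9 assembly, treats these genes in another way. It gives RPKM, a read density adjusted for gene length and library size, for 87 of the 89 members, all but Rpl41 and Rpl24, and the reads across each splice junction. The values are not tied to a replicate, so the mean RPKM and the junction reads of both libraries together are given, with no SD. Rplp1 was highest there too, with 283 RPKM and 114132 reads across its most used annotated junction. Rps12, second in TPM, had only 2.29 RPKM and 2303 reads across its most used junction. Rplp0, with 6 copies and 1721 and 1874 TPM, had 214.5 RPKM and 35505 reads. Rps3, a protein at the mRNA entry channel, with 1 copy and 749 and 919 TPM, had 172 RPKM and 47821 reads. Rpl38 had 1683 and 2068 TPM, but 2.27 RPKM and 1297 junction reads. Genes of like TPM thus differed widely in RPKM and in junction reads.

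Over the 75 core members with mm9 values, RPKM and TPM were loosely related (Spearman's rho 0.319), as were TPM and the reads of the most used junction (0.351). The mm9 values were closer to each other, with a rho of 0.798 between RPKM and junction reads. All are descriptions across genes that share libraries. The number of reads across the top junction per TPM had a median of 11.5 in the 23 core members with at most 5 copies, 4.40 in the 35 with 6 to 15 copies and 3.22 in the 17 with more. The median RPKM per TPM was 0.0401, 0.0183 and 0.0219 in the same bins. Rpl5 had 27.8 RPKM and 4783 junction reads and Rpl27 9.34 RPKM and 1197. Rpl5 therefore had more junction reads than Rps12, at a TPM far below it, and its rank depended on the table used.

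**Figure D3:**
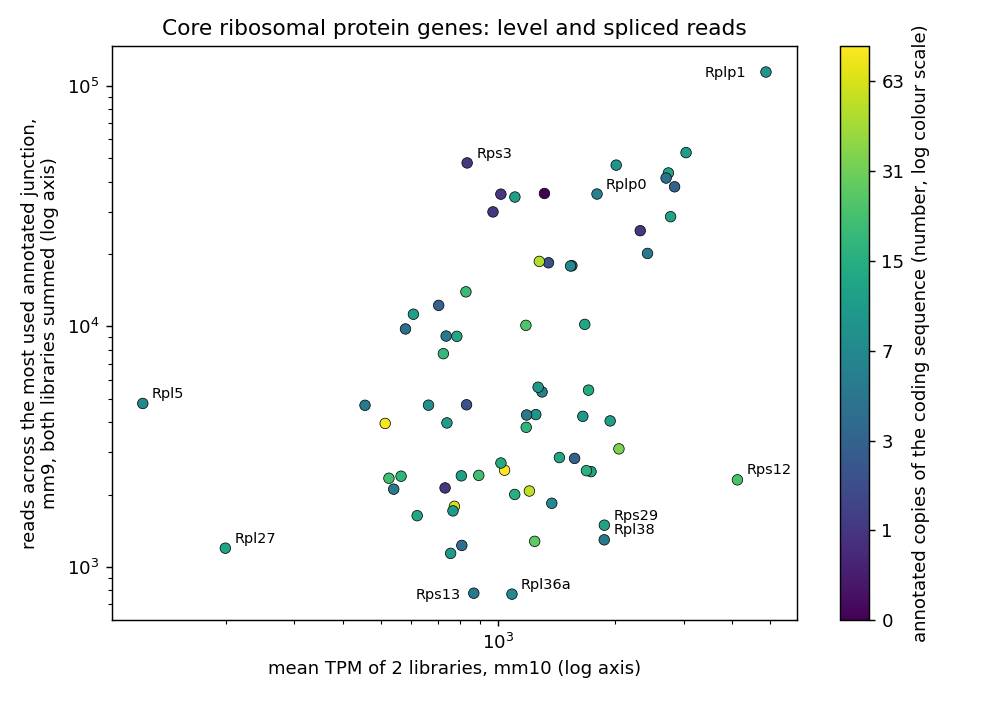
Mean TPM on mm10 (x, log axis) against reads across the most used annotated junction on mm9, both libraries summed (y, log axis), for 70 of the 75 core members with both values; colour is the number of annotated copies of the coding sequence. Among genes of like TPM the junction reads differ widely, from 1297 for Rpl38 to 35505 for Rplp0.

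The coding paralogs differed by orders of magnitude. Rpl36al, a copy of Rpl36a, had 425 and 496 TPM, beside 1080 and 1094 TPM for Rpl36a. Rps27l, a p53-responsive paralog of Rps27, had 189 and 258 TPM, beside 670 and 843 TPM for Rps27. Rpl22l1, which can take the place of Rpl22, had 155 and 171 TPM beside 613 and 546 TPM. Rpl7l1 had 31.6 and 35.9 TPM, which was 2.96% and 3.13% of Rpl7 (1067 and 1145 TPM). In all 4 the paralog stood below its counterpart in both libraries without overlap, and the log2 ratio of the levels was -1.24 ± 0.145 for Rpl36al, -1.76 ± 0.083 for Rps27l, -1.82 ± 0.22 for Rpl22l1 and -5.02 ± 0.055 for Rpl7l1 (SD, n = 2, pseudocount 0.5 TPM).

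The 3 remaining coding paralogs were at the limit of detection. Rpl10l, a retrocopy known from spermatogenesis, had 0 counts in both libraries, which allows up to 0.0302 CPM in replicate 1 and 0.0286 CPM in replicate 2 (3 counts, counting error only). Its counterpart Rpl10, which completes the peptidyl transferase centre late in assembly, had 1668 and 2217 TPM. Rpl39l had 0.21 and 0.48 TPM beside 709.7 and 739.8 TPM for Rpl39, and Rpl3l had 0.20 and 0.15 TPM beside 934.7 and 852.1 TPM for Rpl3. Over both libraries, 7 reads crossed the most used annotated junction of Rpl3l and 16 that of Rpl39l. The 5 male germ cell markers were at 0.14 TPM or less in both libraries. Of the 6 skeletal muscle markers, Ckm (263 and 259 TPM) and Tnnt3 (56.0 and 55.5 TPM) were present, whereas Atp2a1, Myh1, Pvalb and Myh4 were at 0.40 TPM or less. Of the 4 heart muscle markers, Tnnt2 had 298 and 205 TPM, Tnni3 3.80 and 3.77 TPM, and Myh6 and Nppa were under 1 TPM. The part of such cells in the level of Rpl3l was not tested.

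The coding paralogs can be told from their counterparts by sequence. In the most divergent 60 bases of the coding sequence, capitals mark the bases at which the members of a pair differ.
Rps27: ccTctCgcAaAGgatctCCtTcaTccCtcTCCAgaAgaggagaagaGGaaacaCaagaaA
Rps27l: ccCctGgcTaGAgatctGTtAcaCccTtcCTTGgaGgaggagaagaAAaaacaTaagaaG
Rpl39: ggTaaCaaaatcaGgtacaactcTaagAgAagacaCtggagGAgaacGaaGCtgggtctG
Rpl39l: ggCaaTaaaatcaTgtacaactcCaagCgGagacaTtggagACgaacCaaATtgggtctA
The pairs differed by 19 and 13 bases in these stretches. Over the whole alignment the identity was 76.2% for Rps27l and 85.0% for Rpl39l. It was 60.3% for Rpl7l1, 70.2% for Rpl22l1, 74.4% for Rpl3l, 84.7% for Rpl10l and 87.7% for Rpl36al.

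The 5 members annotated as processed pseudogenes have no annotated junction. Rps4l, an autosomal copy of the X-linked Rps4x with 79.97% identity, had 65.6 and 82.8 TPM beside 1530 and 1544 TPM for Rps4x. Rps3a2 had 66.2 and 59.3 TPM and Rps3a3 had 2.27 and 1.68 TPM, beside 1576 and 1523 TPM for Rps3a1. Rpl6l had 12.6 and 8.07 TPM beside 669 and 659 TPM for Rpl6. Rps12l1 had 0.91 and 0.81 TPM beside 3899 and 4347 TPM for Rps12. All stood below their counterpart in both libraries. The sequences of 2 such pairs are shown for how little they differ.
Rps12 and Rps12l1: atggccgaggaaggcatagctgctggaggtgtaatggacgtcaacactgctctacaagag
Rps3a1: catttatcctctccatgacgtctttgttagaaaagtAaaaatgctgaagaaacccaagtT
Rps3a2: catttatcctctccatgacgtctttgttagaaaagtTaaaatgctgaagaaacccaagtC
Rps12l1 (chr7:56014016-56014414) was identical to Rps12 over all 396 bases of the coding sequence, of which the first 60 are given. Rps3a2 (chr14:88123017-88123808) differed from Rps3a1 at 4 of 792 bases, of which 2 lie in the stretch shown, and Rps3a3 differed at 9.

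On mm9 the order of 6 of the 12 pairs was the opposite. Among these 6 are the pairs of Rpl6l and Rps12l1, which were added after values were seen. Rps12l1 had 164 RPKM against 2.29 RPKM for Rps12, a log2 ratio of 5.88 where TPM gave -11.56. Rps3a2 had 147 RPKM and Rps3a3 74.0 RPKM against 62.2 RPKM for Rps3a1, and Rpl6l had 42.9 RPKM against 31.3 RPKM for Rpl6. Rpl36al had 48.6 RPKM against 4.42 RPKM for Rpl36a, and Rps27l had 14.0 RPKM against 4.95 RPKM for Rps27. Junction reads went the same way for these coding pairs, with 11695 for Rpl36al and 771 for Rpl36a, and with 4470 for Rps27l and 1139 for Rps27. Rps27 is the core member of shortest effective length, 57.9 bases in replicate 1 and 44.4 in replicate 2, and its 670 and 843 TPM rested on 2986 and 3184 counts. On CPM Rps27l stood above Rps27 (log2 ratio 0.79). The orders of Rpl7l1, Rpl10l, Rpl22l1, Rpl3l, Rpl39l and Rps4l were the same in both tables.

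**Figure D4:**
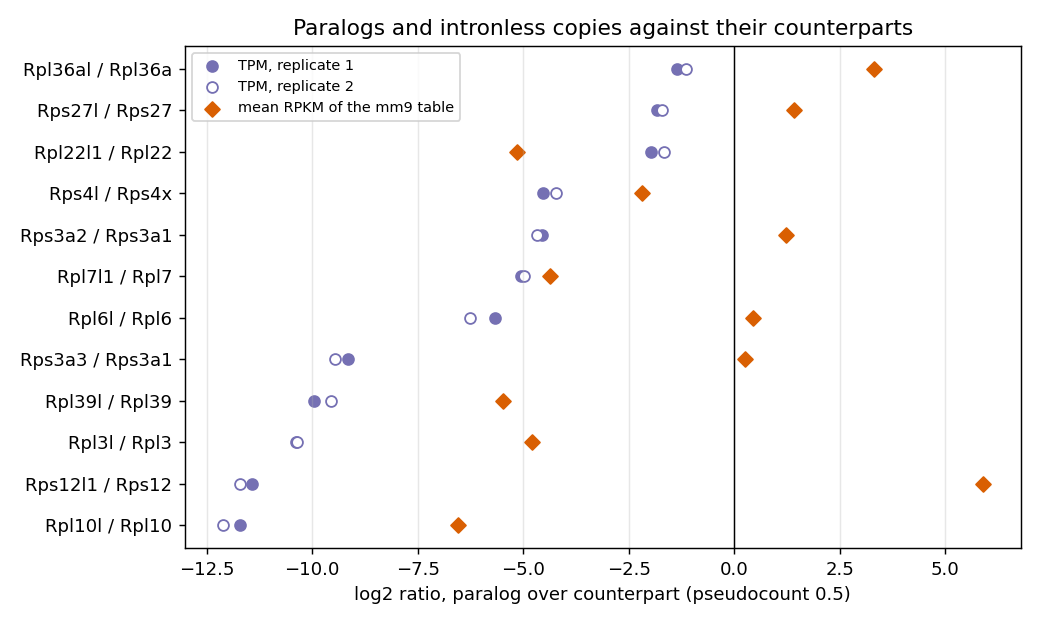
Log2 ratio of each paralog or intronless copy to its counterpart, from TPM in replicate 1 (filled circles) and replicate 2 (open circles) and from the mean RPKM of the mm9 table (diamonds), with a pseudocount of 0.5. All 12 TPM ratios lie below 0, and 6 of the 12 RPKM ratios lie above it, among them those of Rpl6l and Rps12l1, which were added after values were seen.

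Rps27a and Fau each encode a ribosomal protein fused to ubiquitin or a ubiquitin-like protein, from which it is cut. Rps27a had 983 and 1054 TPM, and Fau, whose symbol falls outside the rule, had 1246 and 1286 TPM. Both levels lay within the range of the core members, and Fau was the higher in both libraries.

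Most members were represented by a single main transcript, some of them because no other was quantified. Of the 85 members at 1 TPM or more, 58 had 1 transcript that held over 90% of their TPM in each library. In 25 of the 85 only 1 transcript was quantified. The annotation fixed the share of that transcript, so these members cannot show whether 1 transcript prevailed. At least 2 transcripts of 10% or more on average were seen in 22 members. For Rps10, an even split was seen between the transcripts Rps10-203 (50.03% ± 0.94) and Rps10-201 (48.2% ± 0.68), and Rps3 was similar with Rps3-201 at 50.9% ± 2.8 and Rps3-202 at 47.7% ± 2.9 (SD, n = 2). Rpl41-201 held 48.9% ± 8.0 and Rpl41-203 42.5% ± 5.8, and which was higher changed between the libraries. For Rps15a, Rps15a-203, a model of 250 bases, held 82.7% ± 0.58, and the 640-base Rps15a-201 held 14.4% ± 0.30. Rps28-205 held 75.8% ± 0.25 and Rpl38-204 held 74.9% ± 1.0. These shares hardly moved between the libraries, whereas Rplp2-203 held 42.9% in replicate 1 and 13.0% in replicate 2. Rpl23-204, annotated as a processed transcript, held 21.2% and 0.973%.

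In several members the leading transcript was annotated as something other than protein-coding. Rps20-201, listed as a retained intron, held 77.1% ± 2.8 of Rps20. It is 582 bases long, against 3706 for the coding Rps20-203. For the shorter transcript, a share of TPM is larger than its share of reads. Whether the RNA kept an intron was not tested. Rps9-206, also listed as a retained intron and 378 bases long, held 54.6% ± 3.5 of Rps9. The coding Rps9-201, of 755 bases, held 43.7% ± 3.7. Rpl12-201, listed as a target of nonsense-mediated decay, held 61.5% ± 0.14 of Rpl12, and the processed transcript Rpl30-205 held 60.7% ± 1.2 of Rpl30. For Rpl13a the leading model, of 338 bases, held 55.2% ± 9.2 and is not in the newer annotation from which transcript names were taken. In Rps6 and Rpl5 a coding transcript led, Rps6-201 with 63.5% ± 7.0 and Rpl5-201 with 46.4% ± 6.1. Beside them the processed transcript Rps6-202 held 36.2% ± 7.0 and the retained intron Rpl5-202 32.9% ± 5.0. Of the members' summed TPM, 92.9% in replicate 1 and 92.5% in replicate 2 lay on transcripts annotated as protein-coding, 2.34% and 2.78% on retained introns and 0.554% and 0.594% on decay targets. The remaining members with 2 transcripts of at least 10% were Rpl7, Rpl10, Rpl15, Rpl21, Rpl22l1, Rpl29 and Rpl31, in which each of the transcripts named is coding.

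The members differed by less than 2-fold between the libraries, as far as they reached 1 TPM. Of the 85 members with a mean of at least 1 TPM, 67, or 78.8%, lay within 1.2-fold. Of all 14533 genes with such a mean, 59.4% did. The members had medians of 993 and 1004 TPM, far above that limit. They were not compared with genes of like level, so this does not show that they are unusually stable. The median log2 ratio of TPM, replicate 2 over replicate 1, was 0.07 for the members and 0.08 for all genes, and 58 of the 85, or 68.2%, were higher in replicate 2, near the 61.4% of all genes at that level. The sign of this median turned with the scaling: it was -0.10 with a trend on length and GC content removed, against 0.03 for all genes, and -0.045 for normalised counts, against 0.002. In the two-sided exact binomial test on rounded expected counts (edgeR, Benjamini-Hochberg adjustment over 18003 genes), 76 of 88 members tested had an adjusted p under 0.05, as had 11495 of all genes. Of these members, 0 were at least 2-fold higher and 0 at least 2-fold lower. Of all genes, 0.867% were called higher and 2.71% lower in replicate 2 by that rule. At a fold of at least 1.5, 1 member was called higher and 2 lower, where 3.54% and 8.04% of all genes were called. These p-values cover counting error only and compare these 2 libraries. A dispersion estimated from the same 2 libraries takes in the differences under test. The test that uses it, given next, therefore cannot decide whether the members differ. With a dispersion estimated between the libraries (a coefficient of variation of 0.181), edgeR's exact test gave an adjusted p under 0.05 for 0 members and 100 of all genes.

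Rps29, a zinc-binding protein of the small subunit, was the member called higher at 1.5-fold. It had 1375 and 2380 TPM, from 20269 and 36055 counts, a log2 ratio of normalised counts of 0.62. The members called lower were Rpl18 (634 and 447 TPM, log2 ratio of counts -0.61) and the intronless Rpl6l (-0.74, adjusted p = 6.67e-17 in the edgeR binomial test). On the TPM scale the next highest log2 ratios were those of Rps27l (0.45), Rpl32 (0.43), Rpl10 (0.41) and Rps28 (0.37), and Rpl21 (-0.39) and Rpl28 (-0.31) were among the lowest. On TPM, small subunit genes were higher in replicate 2 in 27 of 31 cases (87.1%) and large subunit genes in 24 of 43 (55.8%). Of all genes that averaged 1 TPM or more, 61.4% were higher. The medians of the log2 ratio of TPM were 0.09 and 0.02, against 0.08 for all genes. Many of the ratios above 0 on TPM, in both subunits, were below 0 on normalised counts, so the numbers of higher genes hold for TPM only. Such signs turned for Rps6 (0.07 on TPM, -0.08 on normalised counts), Rps4x (0.01 and -0.08), Rps15a (0.07 and -0.02) and Rps21 (0.15 and -0.01). They also turned for Rps27 (0.33 and -0.12) and, in the large subunit, Rpl12 (0.13 and -0.08). Others, as that of Rps29, did not. The split between the subunits was not tested.

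**Figure D5:**
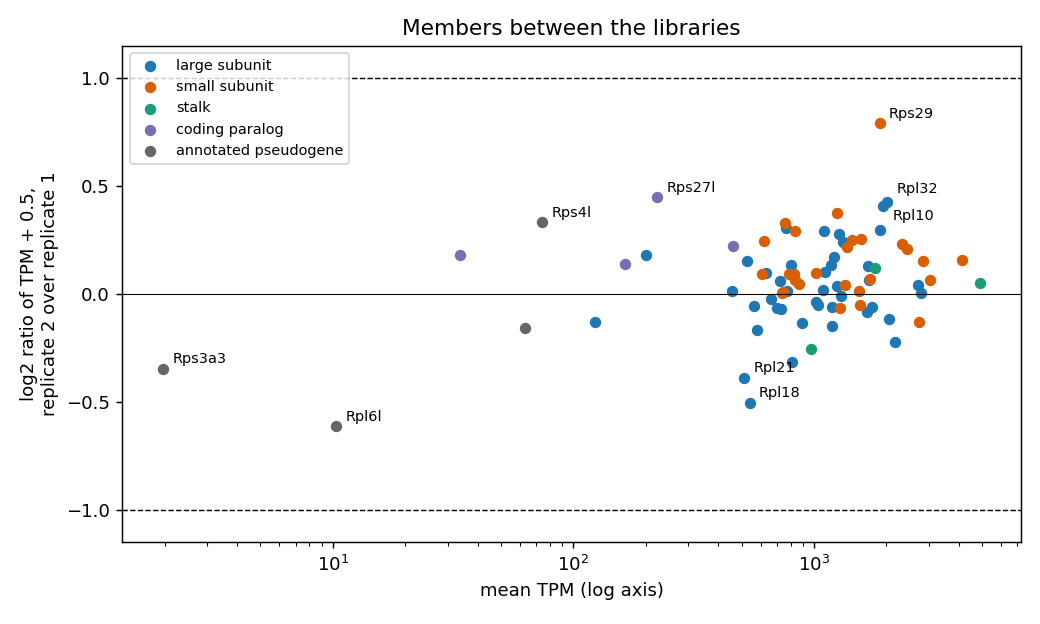
Log2 ratio of TPM + 0.5 between replicate 2 and replicate 1 against mean TPM (log axis) for 80 of the 85 members with a mean of at least 1 TPM; dashed lines mark a 2-fold difference. All 80 points lie between the lines, and Rps29 is highest at 0.79.

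The libraries also differed in markers of the cells they hold. All 5 superficial urothelium markers were higher in replicate 2, with a summed level of 0.486% of gene TPM in replicate 1 and 0.711% in replicate 2. So were all 4 adipocyte markers (0.0992% and 0.200%), while all 5 smooth muscle markers were lower (2.72% and 2.57%). Their fall was uneven, with a log2 ratio of -0.85 for Myh11 (2113 and 1170 TPM). It was -0.18 for Cnn1, -0.09 for Actg2, -0.06 for Acta2 and -0.01 for Tagln. The 4 macrophage markers summed to 0.0567% and 0.0642%, the 4 fibroblast markers to 0.519% and 0.506%, the 3 basal urothelium markers to 0.0933% and 0.0949% and the 3 endothelium markers to 0.0186% and 0.0222%. Of the endothelium markers only Egfl7 was higher in replicate 2 (108 and 156 TPM). Pecam1 (46.3 and 35.9 TPM) and Cdh5 (20.3 and 11.9 TPM) were lower. Among the fibroblast markers only Dcn was higher in replicate 2 (2371 and 2679 TPM). Col3a1 (1396 and 1240 TPM), Col1a1 (1071 and 716 TPM) and Pdgfra (34.6 and 22.9 TPM) were lower. Uroplakins (Upk1a 1612 and 2342 TPM) and smooth muscle actin (Acta2 8841 and 8508 TPM) were abundant, so the defining markers of bladder were present. The part of cell makeup in the members' differences was not tested.

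Genes that serve the ribosome were present at lower levels. All 30 ribosome biogenesis genes of the list reached 1 TPM in both libraries, with medians of 25.2 and 29.2 TPM, led by Nop10 (70.8 and 109 TPM), Sbds (74.8 and 77.6 TPM) and nucleolin, Ncl (92.5 and 48.5 TPM). Of these, 1, Ncl, was called lower in replicate 2 at 2-fold and 0 were called higher, where 2.71% and 0.867% of all genes were called. The 77 mitochondrial ribosomal proteins, which serve the separate ribosome of mitochondria, were all detected, with medians of 40.4 and 44.7 TPM. They were led by Mrps21 (173 and 220 TPM), Mrpl52 (150 and 168 TPM) and Mrpl17 (146 and 166 TPM). The cytosolic core had medians of 1090 and 1159 TPM.

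Of 10 elongation factor genes, 9 reached 1 TPM, and Eef1a1, which delivers aminoacyl-tRNA, had 6995 and 5621 TPM, above every ribosomal protein gene. Eef2, the translocase, had 1008 and 788 TPM and Eef1b2 had 731 and 717 TPM. All 14 other genes with known TOP mRNAs were detected, led by Tpt1 (2141 and 1973 TPM), Rack1, a protein of the small subunit whose name falls outside the rule (867 and 961 TPM), and Btf3 (537 and 499 TPM). The genes listed as regulators of ribosomal protein mRNA were low, and 11 of 12 reached 1 TPM. Eif4ebp1 had 81.7 and 97.6 TPM, Trp53 54.4 and 64.5 TPM and Mdm2 45.9 and 52.9 TPM. Trp53 and Mdm2 stand in that list although the link to Rpl5 given above is to the protein. The RNA-binding protein Larp1 had 29.8 and 23.4 TPM and the kinase Mtor 13.9 and 11.8 TPM. None of the elongation factors, other TOP genes or regulators was called between the libraries at 2-fold in either direction. Of all genes, only 0.867% were called higher and 2.71% lower, so few calls could be looked for in lists this short.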

How the data were processed

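The members, gene lists and tests were chosen with earlier results of these data known, so they are not independent of them. For each library the authors deposited mm10 tables of genes and transcripts (GENCODE M4, per the labels), which hold expected counts and TPM, per the file headers. No source used here gives the aligner or quantifier. The deposited mm9 tables give RPKM for Ensembl genes and read counts per splice junction, which no label ties to a replicate. Rows other than Ensembl genes took 5.01% and 5.98% of the counts and entered neither library sizes nor shares; TPM had been scaled over all rows.

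Symbols, positions and coding sequences come from GENCODE M21 (mm10). Ratios of TPM are on the log2(TPM + 0.5) scale, which shrinks the ratios of low genes. Expected counts were rounded and tested with edgeR 4.0.16 (R 4.3.3, TMM, filterByExpr) by a two-sided exact binomial test with Benjamini-Hochberg adjustment at 0.05; DESeq2 1.42.0 size factors were an alternative. Copies were found with blastn 2.17.0 and paralogs aligned with Biopython 1.88. Other steps used Python 3.11.15, numpy 2.4.6, pandas 2.3.3 and matplotlib 3.10.9. The binomial test and the length and GC trend were tested on simulated data.

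Genes named are the 10 members of highest mean, the 10 core members of lowest mean, members under 1 TPM, listed paralogs, stalk and fusion genes, the 5 largest ratios each way among members of at least 5 TPM, members with at least 2 transcripts of 10% or more, and the 3 leading genes of other lists. Some items that these choices would name are not reported here, in the text or the figures. The copies, the pairs of Rpl6l and Rps12l1, the 1.2-fold margin, and genes named for their copies, junctions or promoters were chosen after values were seen. Alternatives were other units, thresholds, pseudocounts and normalisations, the mm9 values, removing mitochondrial genes or a length and GC trend, and leaving out each library.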

Additional observations from a re-analysis of the deposited data

How the results depend on the processing

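The share of TPM held by the members (11.2%) moved to 3.96% on expected counts, 13.4% without mitochondrially encoded genes, 3.65% in mm9 RPKM and 12.5% with copies added, and was 10.8% to 11.7% with 1 library left out. The count of members called was 0 in each direction with DESeq2 size factors and with no filter, and 1 higher and 2 lower at 1.5-fold. It was also 0 with a common dispersion, which takes in the differences under test. The members' median log2 ratio (0.07) was 0.018 without mitochondrially encoded genes and -0.10 with the length and GC trend removed, where that of all genes was 0.03; the cause was not tested. The median paralog ratio (-4.82, over 10 pairs, without Rpl6l and Rps12l1, which were added after values were seen) was -4.71 on CPM, -3.29 in mm9 RPKM, -4.83 and -4.80 with a pseudocount of 0.1 and 1, and -4.82 to -4.81 with 1 library left out. Over all 12 pairs it was -5.49, and -0.97 in mm9 RPKM. In mm9 RPKM, 6 of the 12 pairs turned: Rpl36al (3.32), Rps27l (1.41), Rps3a2 (1.23), Rps3a3 (0.25), Rpl6l (0.45) and Rps12l1 (5.88), as did Rps27l on CPM (0.79). The subunit ratio (-0.32) was -0.086 on CPM and -0.42 in mm9 RPKM, and -0.35 to -0.30 with 1 library left out. The SD over the core (0.88) was 1.61 in mm9 RPKM, 0.73 with copies added and 0.86 to 0.91 with 1 library left out. Members with 2 transcripts of at least 10% numbered 22 to 23. The pyrimidine run was in 41 of 64 members (64.1%) at 6 bases, against 36.8% of all genes. At 10 bases it was in 24 members (37.5%), against 9.06% of all genes. Leaving out a library gives no value for a ratio between the libraries. No paired analysis was possible because there is only 1 group. Levels of low members (Rpl10l, Rpl3l, Rpl39l) are limited by counts, and members with identical copies by how reads were assigned, which no file here shows.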

Other observations

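Rps27rt, a protein-coding gene whose symbol falls outside the rule, had 272 TPM in replicate 1 and 648 TPM in replicate 2, with 3595 and 8718 expected counts, beside 670 and 843 TPM for Rps27. It was chosen after its values were seen. Among the annotated copies, Rpl23a-ps3 had 92.1 and 210 TPM and Gm10132, a copy of the same gene, 163 and 86.3 TPM, so their order was opposite in the libraries, while Rpl23a itself had 2128 and 1964 TPM. Gm4149, a copy of Rpl37a, had 251 and 421 TPM, and Gm10275, a copy of Rpl12, had 202 and 332 TPM. Rps12-ps3, which the annotation lists as protein-coding, had 325 and 283 TPM.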
